A study of Bos taurus with 6 samples.

Results

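Immediate early genes of AP-1 and EGR are described here in intramuscular fat (IMF) of Qinchuan steers and bulls. The genes were chosen by symbol, with earlier results of these data known, so their values are a description and no test is built on them. Of 10 symbols, FOS, FOSB, FOSL1, FOSL2, JUN, JUNB, JUND, ATF3 and EGR1 were found, which makes 9 of the 25444 genes of the mRNA count table, while EGR2 was not analysed here. The mRNA was sequenced as 1 pooled library of castrated males (CM, steers) and 1 of intact males (IM, bulls), out of 6 samples in the series. All animals were Chinese Qinchuan males of 24 months that had been weaned at 3 months and kept on the same diet, and the steers were castrated surgically at 6 months. The fat was dissected from the sternomandibularis, a neck muscle. The design text gives 6 animals behind each mRNA pool and the sample labels give 3. Because each group was a single pool, no spread between animals could be measured, and every interval below is a 95% interval that covers counting error only.

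AP-1 is a transcription factor made of pairs of bZIP proteins, in which a FOS protein needs a JUN protein to bind DNA while JUN proteins can also pair with each other or with ATF proteins. EGR proteins are zinc finger factors that bind GC-rich sites. The genes of both are known as immediate early genes, because growth factors, cytokines, mechanical strain and stress switch them on within minutes through MAP kinases acting on factors already present, and their mRNAs are short-lived. In fat they are known from the first hours after preadipocytes receive a differentiation stimulus and from activated macrophages.

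All 9 genes had fewer reads in steers than in bulls after scaling, with log2 ratios of steers over bulls from -2.68 for ATF3 to -0.29 for FOSL2. Over all genes tested, 49.1% had a ratio below 0, and among genes with at least 1000 counts 35.4% did. The 95% interval lay below 0 for all 9, and the share of all genes with such an interval is not given here. At least 2-fold lower in steers were 5 of the 9, namely ATF3, FOSL1, FOSB, FOS and JUN, and 0 were at least 2-fold higher. For comparison, 11.5% of the 14540 genes with at least 10 counts over both libraries were at least 2-fold lower and 6.73% at least 2-fold higher, and among the 3188 genes with at least 1000 counts the shares were 3.95% and 3.61%. Of the 9 genes, 7 had at least 1000 counts, and 3 of these 7 were at least 2-fold lower. The 4 other call rules resting on the reads alone keep each ratio and its sign, so none of the 9 genes could be called higher under them. With a minimum of 1 count, 5 of 9 were lower, beside 16.4% of all genes lower and 13.1% higher, and with a minimum of 50 counts 4 of 8, beside 8.22% and 3.89%. The whole interval was past 2-fold for FOS, FOSB, JUN and ATF3, beside 5.31% of all genes lower and 2.59% higher. An exact binomial test of the reads together with the 2-fold limit called 5, beside 9.94% and 5.45%. The median log2 ratio was -1.08 over the 9 genes and 0.01 over all 14540. With 1 pool per group these values compare 2 libraries and not the conditions, and an edgeR exact test with an assumed biological coefficient of variation of 0.4 called 0 of the 9 (lowest adjusted p = 0.147, for ATF3, with 2 genes at an unadjusted p under 0.05), where 0.688% of all genes were called lower and 0.365% higher.

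**Figure D1:**
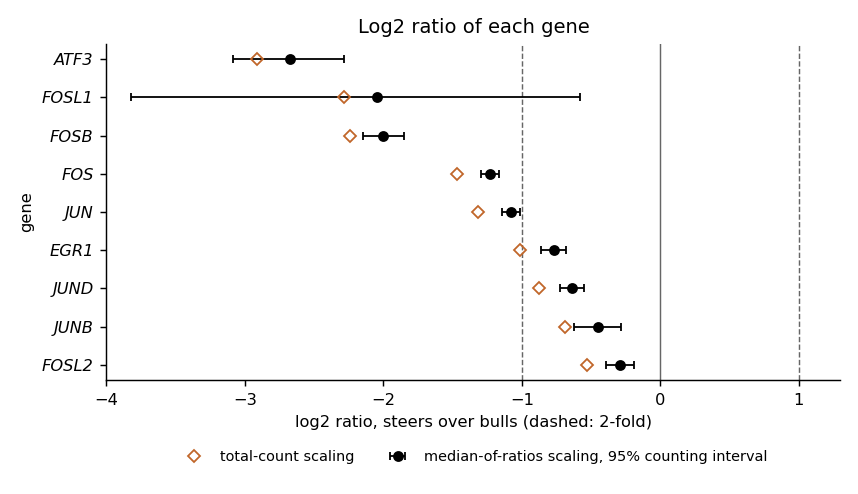
Log2 ratio of steers over bulls (horizontal axis) for the 9 genes, ordered by size. Black points are counts scaled by median-of-ratios size factors with 95% Clopper-Pearson counting intervals, open diamonds are the same counts scaled by total counts, and dashed lines mark 2-fold. All points lie left of 0, from -2.68 (ATF3) to -0.29 (FOSL2), and EGR1 reaches -1.01 with total counts.

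Markers of other cell types are given beside these genes, and their direction differed between cell types. For comparison with the calls below, 11.5% of all genes tested were at least 2-fold lower and 6.73% at least 2-fold higher. With total counts these shares were 15.3% and 4.85%. Of 9 myeloid markers in the table, 7 were at least 2-fold lower in steers, and none was at 0. Their summed level was 1623 CPM (counts relative to the total of the library) in steers and 4351 CPM in bulls. All 8 T lymphocyte markers were at least 2-fold lower, at 9.70 and 90.4 CPM in sum, with CD3G at 0 in steers. Of 6 B lymphocyte markers, at 1.89 and 9.53 CPM, 2 of the 3 with enough counts were lower, PAX5 was at 0 in steers, and CD79B and MS4A1 were at 0 in both libraries. Skeletal muscle markers reached 2452 and 4459 CPM, with 2 of 10 lower and 1 higher (3 and 0 with total counts). The part of these cells in the values of the AP-1 and EGR genes was not tested, and in a bulk sample fewer cells of a type and less RNA per cell cannot be told apart. None of 7 endothelial and 6 smooth muscle markers was past 2-fold (797 and 971 CPM, and 1285 and 1605 CPM). Fibroblast markers were at 66894 and 40501 CPM, with 2 of 6 at least 2-fold higher (1 with total counts). Neutrophil markers were at 21.3 and 8.11 CPM (1 of 4 lower, 2 higher) and erythroid markers at 3.16 and 0.709 CPM. Adipocyte markers, which define the labelled tissue, were present in both libraries, at 2398 and 3373 CPM over 7 genes, with none at 0, 1 at least 2-fold lower and 1 higher. The totals were 12677375 counts in steers and 9868415 in bulls.

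Among the FOS proteins, FOS is the founding partner of JUN and the member with the briefest response to a stimulus. The steers' pool held 3029 counts and the bulls' pool 6525, which is 239 CPM (230 to 248) and 661 CPM (645 to 677). The log2 ratio was -1.23 (-1.29 to -1.17), so that steers held 42.7% of the bulls' scaled level. Among all genes tested, 9.07% had a lower ratio. FOSB, whose splice form deltaFosB is known for its stability, was counted 477 times in steers and 1754 times in bulls, or 37.6 CPM (34.3 to 41.2) and 178 CPM (170 to 186). The level of FOSB in steers was 25.0% of that in bulls, with a log2 ratio between -2.15 and -1.85, and FOSB differed by more than FOS (difference of their log2 ratios 0.77, 0.61 to 0.93). The table gives a single count per gene, so the splice forms of FOSB cannot be separated.

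FOSL1 and FOSL2 encode FRA1 and FRA2, which lack the strong transactivation domain of FOS and FOSB and are usually induced later. FOSL1 was close to the detection limit, with 5 counts in steers and 19 in bulls. Its log2 ratio of -2.05 had an interval from -3.83 to -0.58, so a change of less than 2-fold lies within counting error. FOSL2 was read 1481 times in steers and 1664 times in bulls, or 117 CPM (111 to 123) and 169 CPM (161 to 177). At a log2 ratio of -0.29 (-0.39 to -0.19) FOSL2 differed least of the 9 genes, and 30.9% of all genes tested had a lower ratio.

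**Figure D2:**
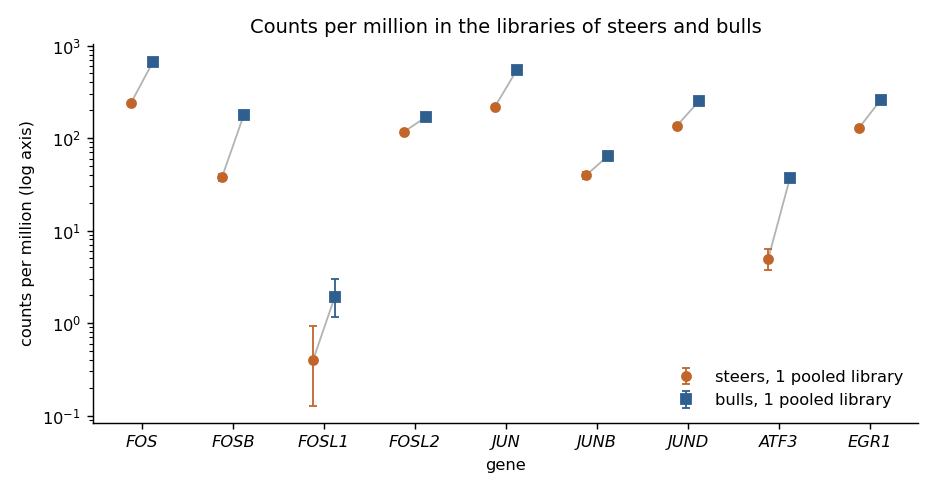
CPM (logarithmic vertical axis) of the 9 genes in the pooled library of steers (circles) and of bulls (squares), joined by a grey line, with exact 95% binomial intervals. The square is above the circle for every gene. Levels of different genes cannot be ranked from this plot because counts were not divided by transcript length.

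The JUN proteins are the DNA-binding core of AP-1. For JUN, 2774 counts in steers stood against 5383 in bulls, or 219 CPM (211 to 227) and 545 CPM (531 to 560). Its log2 ratio of -1.08 (-1.15 to -1.01) was just past 2-fold. JUNB, which can oppose JUN on some genes, had 502 and 631 counts and a log2 ratio of -0.45 (-0.62 to -0.28). JUND, the member that is present without a stimulus in most cells, had 1730 and 2474 counts and a log2 ratio of -0.64 (-0.73 to -0.55). JUNB and JUND were thus within 2-fold, at 73.1% and 64.2% of the bulls' scaled level, while JUN was at 47.3%. In the current RefSeq table of cattle genes JUND overlaps IQCN, which has no row of that name in the count table, and since the use of strand in counting was not stated, JUND reads cannot be fully separated from that gene. The other members overlapped no gene there.

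ATF3, a stress-inducible bZIP protein that represses many inflammatory genes, showed the largest difference among the 9 genes. There were 62 counts in steers against 364 in bulls, or 4.89 CPM (3.75 to 6.27) and 36.9 CPM (33.2 to 40.9). ATF3 was 6.39-fold lower in steers (4.87 to 8.51), and 2.64% of all genes tested had a lower ratio. EGR1, a zinc finger factor induced by serum and growth factors, was counted 1638 times in steers and 2569 times in bulls, or 129 CPM (123 to 136) and 260 CPM (250 to 271). It had a log2 ratio of -0.77 (-0.86 to -0.68), within 2-fold, but was past 2-fold, at -1.01, with scaling by total counts. With that scaling 6 of the 9 genes were at least 2-fold lower, against 15.3% of all genes, with 4.85% of all genes higher.

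**Figure D3:**
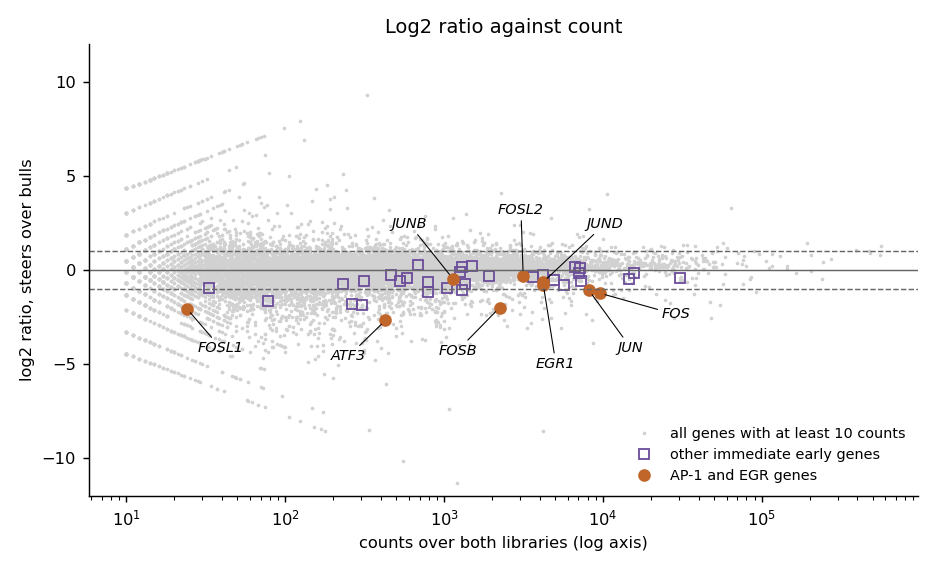
Log2 ratio of steers over bulls against the counts over both libraries (logarithmic horizontal axis) for 14540 genes (grey), 30 other immediate early genes (open squares) and the 9 AP-1 and EGR genes (filled circles). Dashed lines mark 2-fold, and genes with a count of 0 in 1 library had 0.5 added to both scaled counts. The 9 genes lie below 0 at low and at high counts.

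The scaling of the libraries cancels when 2 genes are compared within each library. Read shares within the FOS and JUN families could therefore be described without it. Of the reads of the FOS family, FOSB took 9.56% in steers (8.75 to 10.4) and 17.6% in bulls (16.9 to 18.4). FOSL2 showed the reverse, with 29.7% in steers (28.4 to 31.0) and 16.7% in bulls, where the interval ended at 17.5%. The share of FOS itself was 60.7% and 65.5%. In bulls FOSB and FOSL2 thus had nearly equal counts, 1.05 reads of FOSB for each read of FOSL2, whereas steers had 0.322, a difference of -1.71 on the log2 scale (-1.89 to -1.53). In the JUN family the share of JUN was 55.4% in steers (54.0 to 56.8) and 63.4% in bulls (62.4 to 64.4), JUND took 34.6% and 29.1%, and JUNB 10.0% and 7.43%. These shares compare the same genes between libraries and do not rank the proteins.

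**Figure D4:**
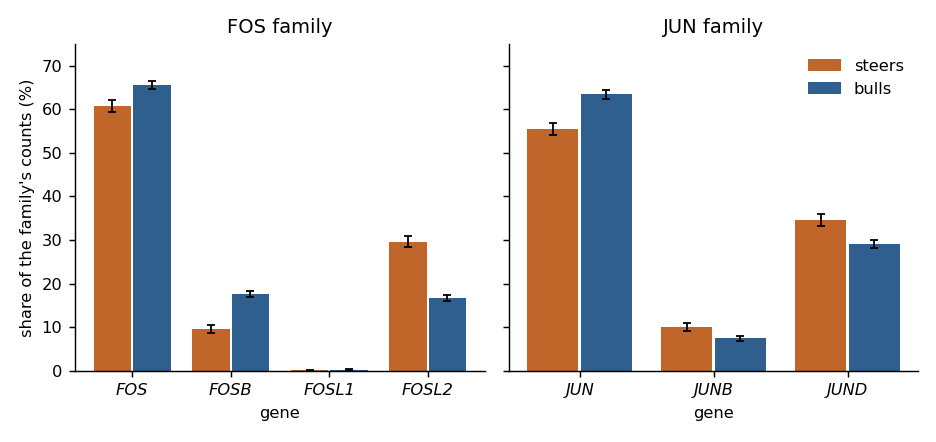
Share of the reads of the FOS family (left) and of the JUN family (right) taken by each gene, in percent, in steers and bulls, with exact 95% binomial intervals. FOSB is at 17.6% of its family in bulls and 9.56% in steers, and FOSL2 is at 16.7% and 29.7%.

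Between partners, FOS and JUN kept close to each other, with 1.09 reads of FOS per read of JUN in steers and 1.21 in bulls, a difference of -0.15 on the log2 scale (-0.24 to -0.06). ATF3 had a lower ratio than EGR1, by -1.90 on the log2 scale (-2.30 to -1.51), and than JUN, which had 44.7 reads per read of ATF3 in steers and 14.8 in bulls. Of the 36 pairs of the 9 genes, the interval of this difference excluded 0 in 28 and held 0 in 8, so the genes did not share 1 common fold. Of these 8 pairs, 6 included FOSL1, for which counting error was large, and the others were FOSL2 with JUNB and JUNB with JUND. All members together took 0.0923% of the counts in steers (0.0906 to 0.0940) and 0.217% in bulls (0.214 to 0.220). Unlike the ratios between 2 genes, these shares depend on the scaling, here by total counts. With median-of-ratios scaling the log2 ratio of the summed reads was -0.99 (-1.03 to -0.96).

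Other genes of the fast transcriptional response were taken from a list of 32, of which 30 reached 10 counts. Of these 30, 5 were at least 2-fold lower in steers (16.7%, beside 11.5% of all genes), 0 were higher (beside 6.73%), and the median log2 ratio was -0.49. The 5 were SOCS3, an inhibitor of cytokine signalling (69 counts in steers and 233 in bulls, log2 ratio -1.88), the pseudokinase gene TRIB1 (62 and 201, -1.82), EGR3 (20 and 58, -1.66, interval -2.47 to -0.90), the kinase gene SIK1 (260 and 530, -1.15) and BTG2, an inhibitor of proliferation (442 and 848, -1.06). The ratio was below 0 for 25 of the 30, beside 49.1% of all genes tested. Some classic members of the response were well within 2-fold, with -0.18 (-0.25 to -0.11) for MYC and -0.15 (-0.20 to -0.11) for CTGF. IER2 was at -0.26 (-0.53 to 0.01) and NR4A1 at -0.34 (-0.47 to -0.21). CYR61 and DUSP1, with 13848 and 6434 counts in steers, were at -0.41 and -0.45. The 5 genes above 0 were GADD45B (0.27), KLF10 (0.20), PER1 (0.15), KLF2 (0.15) and RHOB (0.09), and all of them except GADD45B turned below 0 with total counts. EGR4 had 0 counts in both libraries.

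Among 11 further bZIP partners of FOS or JUN proteins, 3 were at least 2-fold lower in steers (27.3%, beside 11.5% of all genes) and 0 higher (beside 6.73%). Among them were BATF, a lymphocyte factor (6 counts in steers and 25 in bulls, log2 ratio -2.18, -3.76 to -0.86), and BATF2 (11 and 43, -2.09). JDP2, known as a repressor of AP-1, was at 0.55 (0.41 to 0.69) with 1085 and 681 counts. ATF2 and ATF4, which are expressed without a stimulus, were at -0.06 and -0.10. The median of the list was -0.38.

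Of 19 factors and kinases that act upstream of these genes and had at least 10 counts, 1 was at least 2-fold lower (5.26%, beside 11.5% of all genes), and 0 were higher (beside 6.73%). It was the kinase gene RPS6KA1 (193 counts in steers and 701 in bulls, log2 ratio -1.98, -2.22 to -1.75), and the median of the list was -0.18. SRF, the factor that binds the serum response element, was at 0.39 (0.22 to 0.57) with 629 and 440 counts, and its partners ELK1 and ELK4 were at -0.23 and 0.67. MAPK3, an ERK kinase, was at 0.04 and turned below 0 with total counts. CREB1 had 51 and 69 counts and a ratio of -0.56 (-1.11 to -0.02).

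For genes that limit the response, 2 of 12 were at least 2-fold lower (16.7%, beside 11.5% of all genes) and 0 higher (beside 6.73%), with a median of -0.28. Both encode MAP kinase phosphatases. DUSP2, known from lymphocytes and macrophages, was at 7 counts in steers against 426 in bulls, with a log2 ratio of -6.05 (-7.37 to -4.99), and DUSP6, which acts on ERK, had 481 and 1381, a ratio of -1.64 (-1.80 to -1.49). The EGR corepressor genes differed in direction, with NAB2 at 0.60 (0.35 to 0.85) and NAB1 at -0.27 (-0.52 to -0.01). ZFP36L1, whose protein destabilises short-lived mRNAs, was at -0.79 with 1883 and 2999 counts.

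Textbook targets of AP-1 or EGR1 were taken from a list of 22, of which 17 reached 10 counts. At least 2-fold lower in steers were 7 of the 17 (41.2%, beside 11.5% of all genes), and 0 were higher (6.73% of all genes). MMP3, a matrix protease, was not counted in steers (0 counts) and had 57 counts in bulls, so it was at least 20.7-fold lower if 3 counts are taken as the detection floor of the steers library. The chemokine gene CCL2 had 6 and 47 counts (log2 ratio -3.09, -4.61 to -1.86), the growth factor gene HBEGF 28 and 75 (-1.54) and SPP1, which encodes osteopontin, 116 and 302 (-1.50). PTGS2 (-1.19), TGFB1 (-1.05) and PLAUR (-1.02) were the other 3. The list did not move as 1 block, since CCND1 was at 0.44 and TIMP1 at 0.35. The median was -0.84, and setting MMP3 at its bound could not change it, since MMP3 stayed the lowest of the 17. MMP1, MMP13 and IL8 had 0 counts in both libraries. Several of the genes that were lower are also expressed by macrophages, and the myeloid and lymphocyte marker values above apply to them as well.

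The heat shock genes of the cytosol and, with HSPD1 and HSPE1, of mitochondria, another class that responds to stress within minutes to hours, had no member past 2-fold. Of all genes tested, 11.5% were at least 2-fold lower and 6.73% at least 2-fold higher. All 10 heat shock genes had a log2 ratio above 0, from 0.17 for HSPA8 to 0.89 for HSPA1A, with a median of 0.42. For comparison, 49.1% of all genes tested had a ratio below 0. HSPA1A reached 10380 counts in steers against 5144 in bulls, although near-identical copies of this gene may share its reads. With total counts HSPA8 and DNAJB1 turned below 0 and the median was 0.18.

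**Figure D5:**
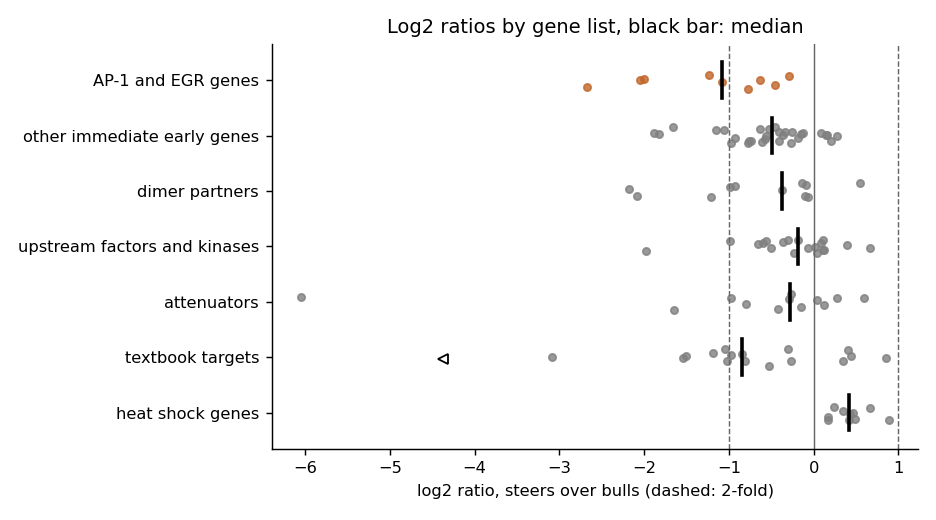
Log2 ratio of steers over bulls (horizontal axis) for each gene with at least 10 counts in 7 lists, with the median of each list as a black bar and dashed lines at 2-fold. The triangle is MMP3 at its bound, since it had 0 counts in steers. The medians run from -1.08 for the AP-1 and EGR genes to 0.42 for the heat shock genes.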

How the data were processed

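The counts per gene were deposited by the authors without normalization, 1 column for the steers pool and 1 for the bulls pool. Adaptors and low-quality reads of the Ion Proton runs had been removed, and MapSplice had placed the remaining reads on a bovine genome. How reads were counted per gene, and whether strand was used, is not given in the sources used here. The submitters' processing notes also list BWA and GRCh37.p13, a human build. Groups follow the sample titles.

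Counts were divided by median-of-ratios size factors (1.04 for steers, 0.959 for bulls) in numpy 2.4.6. A gene was tested with at least 10 counts over both libraries and called past 2-fold (absolute log2 ratio over 1). Intervals are 95% Clopper-Pearson intervals from scipy 1.17.1, or Wald intervals on the log scale for ratios between 2 genes. Where a library was at 0, 0.5 was added to both scaled counts. EdgeR 4.0.16 gave TMM factors and the exact test. Scaling, call and intervals were tested on simulated counts with counting error only and as many genes raised as lowered. Spread between pools was not simulated, so that test does not cover it. Other scalings, count minimums, added counts and call rules were tried as alternatives. EBSeq, the study's tool, was not used.

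The genes and lists were chosen with earlier results of these data known, and the text names all genes described, any other immediate early gene, and the 3 lowest and 3 highest past 2-fold of each further list. Other genes of those lists were picked after their values were seen. Lists were written from general knowledge. The planned description of promoters and proteins was not made, since only a table of gene names was used (ARS-UCD2.0, all 10 symbols matched). Small RNA libraries were not used here. Values of some genes of the lists are not reported here.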

Additional observations from a re-analysis of the deposited data

How the results depend on the processing

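With 1 pool per group the values rest on 2 libraries, and depth limits FOSL1, EGR3 and BATF most. All 53 values of the 9 genes under 6 alternative settings were below 0, and 46 lay within the original counting interval. Much of this was fixed in advance, because a changed count minimum leaves each ratio as it was. TMM and upper-quartile scaling shift every log2 ratio by only -0.02 and 0.02. Total counts shift every log2 ratio by -0.24. With them the median of the 9 genes was -1.32, and 8 other immediate early genes were at least 2-fold lower. Over all 6 lists beside the 9 genes, which include the other immediate early genes, 29 genes (instead of 18) were at least 2-fold lower. Of the calls over all genes, 75.9% were lower (2221 lower, 705 higher) instead of 63.2% (1679 and 979). Requiring the whole interval past 2-fold left 4 of the 9 genes and 10 genes over the 6 lists, of which 2 were other immediate early genes. Over all genes it left 772 lower and 376 higher. With the assumed variation between pools, edgeR's exact test called 0 of the 9 genes, 0 other immediate early genes, 2 genes over the 6 lists, and 100 lower and 53 higher genes overall. The exact binomial test called the same number, 5 of the 9. Without a count minimum 1 gene of the 6 lists was higher, and the calls over all genes were 2912 and 2317. With at least 50 counts they were 984 and 465, and 4 of 8 of the genes described were lower. No paired analysis was possible because each group has 1 mRNA library.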
